A study of Mus musculus with 6 samples.

Results

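The genes described here serve protein folding, translocation and stress signalling in the endoplasmic reticulum (ER). They are 45 genes chosen by name, found in 46 of the 52249 rows of the deposited table because Ddit3 has 2 gene models there. They were measured in organoids of the mouse intestine, small epithelial structures kept in culture, by sequencing near the polyadenylated 3′ end of each transcript. All 6 libraries carried the genotype Apc-knockout, the loss of a tumour suppressor that restrains WNT signalling. In 3 of them, called control here, no other change is named, and the other 3 were labelled as also overexpressing IGF2BP3, an RNA-binding protein, and are called OE-labelled. The labels name no promoter or vector for the overexpression, no age, sex or strain of the mice, and no separate cultures or animals behind the replicates, so p-values measure only the spread between these libraries, which may be technical. Mouse Igf2bp3 itself had at most 1 count in any library and gave no check of the label.

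Secreted and membrane proteins enter the ER through the SEC61 channel, lose their signal peptide, and fold with the help of chaperones such as BiP (the product of Hspa5), lectin chaperones and disulfide isomerases. Proteins that fail to fold are passed back to the cytosol and degraded, a route called ER-associated degradation. When unfolded proteins accumulate, the sensors IRE1, ATF6 and PERK start the unfolded protein response: IRE1 splices the Xbp1 mRNA, ATF6 is cleaved into a transcription factor, and PERK slows translation and raises ATF4. The intestinal epithelium is known for its dependence on Xbp1 in secretory cells, and it also expresses the epithelial IRE1 form IRE1β, encoded by Ern2.

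Promoter elements known from this response are shown first, because members that rose and members that fell both carry them. RefSeq promoters of build GRCm38.p6 were found for 38 of the 45 genes, and the 250 bases before the start site were searched on both strands. Hyou1, Manf, Ern2, Atf6, Derl1, Sec61a1 and Ssr2 had no entry. The ER stress response element ERSE, to which ATF6 binds together with NF-Y, was searched as CCAAT followed, after any 9 bases, by CCACG. It occurred in 9 of the 38 members (23.7%), against 0.113% of 32817 promoters of the same length: Hspa5, Hsp90b1, Dnajc3, Creld2, Calr, Canx, Pdia6, Syvn1 and Derl3. The related ERSE-II, searched as ATTGG followed, after any 1 base, by CCACG, occurred in Herpud1 and in 0.0305% of all promoters. The element named CARE, to which ATF4 binds with C/EBP partners, was searched as TGATGNAAN and occurred in Asns, Chac1, Herpud1 and Txndc5 (10.5% of the 38, against 3.44% of all promoters). The XBP1-type element UPRE, searched as TGACGTGG, occurred in 0 of the 38 members and in 0.564% of all promoters. No match overlapped another. The members were chosen as genes of this response, so these shares are no test of enrichment. Each member was searched at the RefSeq start nearest to its annotated gene start, while the shares of all promoters count every distinct RefSeq start. The sequences below run 5′ to 3′ and end at the base before the RefSeq start, with the fixed letters of each match in capitals. The first 3 belong to members that fell in OE-labelled libraries and the others to members that rose.
Hspa5: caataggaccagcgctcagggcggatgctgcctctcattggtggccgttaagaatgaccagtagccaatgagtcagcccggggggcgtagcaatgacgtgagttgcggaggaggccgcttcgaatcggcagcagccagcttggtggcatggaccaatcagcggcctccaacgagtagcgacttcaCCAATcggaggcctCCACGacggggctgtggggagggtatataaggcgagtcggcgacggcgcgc
Hsp90b1: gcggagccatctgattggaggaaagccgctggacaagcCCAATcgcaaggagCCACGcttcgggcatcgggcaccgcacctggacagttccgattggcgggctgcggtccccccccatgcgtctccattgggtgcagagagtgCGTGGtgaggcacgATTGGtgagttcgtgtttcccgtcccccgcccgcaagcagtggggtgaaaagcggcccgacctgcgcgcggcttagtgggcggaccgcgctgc
Canx: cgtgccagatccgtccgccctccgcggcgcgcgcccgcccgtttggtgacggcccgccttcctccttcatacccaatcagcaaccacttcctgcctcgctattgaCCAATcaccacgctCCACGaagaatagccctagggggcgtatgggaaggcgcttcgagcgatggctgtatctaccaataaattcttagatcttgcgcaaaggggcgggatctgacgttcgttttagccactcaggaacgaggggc
Creld2: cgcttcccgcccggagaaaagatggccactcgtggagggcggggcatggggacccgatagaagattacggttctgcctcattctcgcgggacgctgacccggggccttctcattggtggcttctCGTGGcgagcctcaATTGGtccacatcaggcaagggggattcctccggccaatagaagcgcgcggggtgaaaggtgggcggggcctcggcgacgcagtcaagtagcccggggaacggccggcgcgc
Herpud1: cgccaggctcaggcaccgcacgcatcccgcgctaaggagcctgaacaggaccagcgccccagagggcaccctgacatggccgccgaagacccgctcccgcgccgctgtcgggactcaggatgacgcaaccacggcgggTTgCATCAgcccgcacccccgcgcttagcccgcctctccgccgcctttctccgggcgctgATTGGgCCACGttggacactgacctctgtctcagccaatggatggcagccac
Asns: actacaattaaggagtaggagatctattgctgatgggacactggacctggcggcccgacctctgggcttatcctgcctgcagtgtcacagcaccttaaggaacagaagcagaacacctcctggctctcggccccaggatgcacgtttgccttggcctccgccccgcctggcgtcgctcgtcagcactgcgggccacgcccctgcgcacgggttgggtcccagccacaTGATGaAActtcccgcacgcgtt
Chac1: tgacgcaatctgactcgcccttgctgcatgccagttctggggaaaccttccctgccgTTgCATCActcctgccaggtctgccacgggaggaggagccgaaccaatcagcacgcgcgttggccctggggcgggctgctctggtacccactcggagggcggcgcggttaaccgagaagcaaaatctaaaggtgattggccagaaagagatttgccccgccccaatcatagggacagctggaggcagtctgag
The windows lie at chr2:34771840-34772089 for Hspa5 (plus strand), chr10:86705445-86705694 for Hsp90b1 (minus strand), chr11:50325674-50325923 for Canx (minus strand), chr15:88819396-88819645 for Creld2 (plus strand), chr8:94386179-94386428 for Herpud1 (plus strand), chr6:7693210-7693459 for Asns (minus strand) and chr2:119350992-119351241 for Chac1 (plus strand). In Hspa5 the ERSE lay 65 to 47 bases before the start, and Hsp90b1 had 2 of them, at 212 to 194 and 107 to 89 bases. The ERSE-II of Herpud1 lay at 52 to 42 bases and its CARE at 113 to 105 bases. The CARE of Asns lay at 23 to 15 bases and that of Chac1 at 194 to 186 bases before the start. These matches are descriptions of letters, and binding was not measured.

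**Figure D1:**
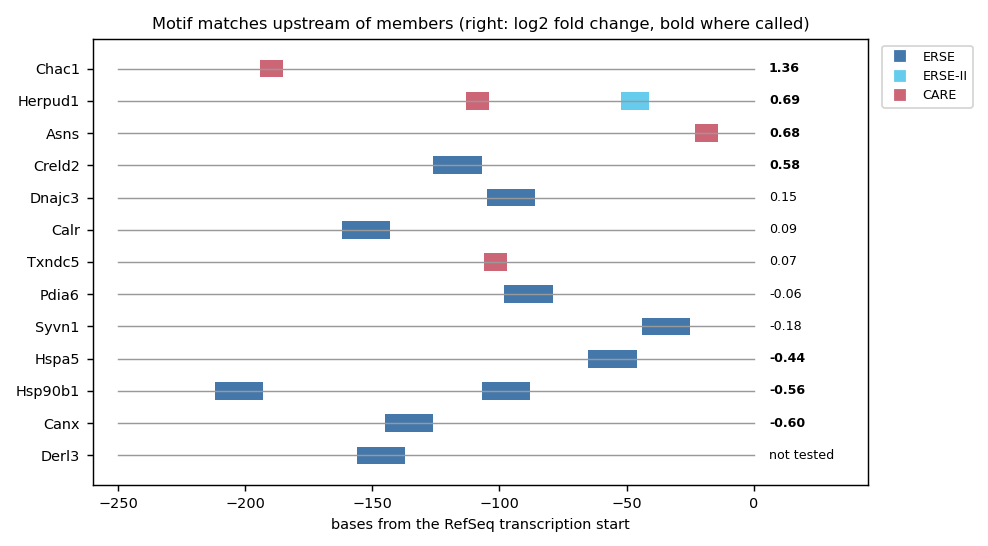
Position of motif matches in the 250 bases before the RefSeq start of the 13 members that had one, with the x axis in bases from the start and 1 line per gene, ordered by log2 fold change (right, bold where the adjusted p was below 0.05). Derl3 was not tested and stands last. Of the 9 members with an ERSE, Hspa5, Hsp90b1 and Canx were called lower, where 12.7% of all tested genes were. The calls for Hspa5 and Canx ended with an allowance for transcript GC content. Creld2 was called higher, a call lost in 15 of 20 alternatives. The other 5 with an ERSE were not called (Dnajc3, Calr, Pdia6 and Syvn1) or not tested (Derl3). Of the 4 with a CARE, Asns, Chac1 and Herpud1 were called higher, where 16.5% of all tested genes were, and Txndc5 was not called.

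Libraries held 2180116 to 2519917 counts, and 3 counts, taken as the limit of detection, correspond to 1.19 to 1.38 CPM, the count scaled to a common library total. The control libraries differed little among themselves (biological coefficient of variation 3.1%) and the OE-labelled libraries more (17.2%). The fits below used a spread per gene shared by both groups, so their p-values and standard errors do not follow this difference. The library names place the groups in separate series, so library series and group cannot be told apart in any comparison. The organoids had epithelial markers, with 924 to 1162 counts of Epcam and 2281 to 3669 counts of Cdh1, and of 8 epithelial markers 4 rose and 1 fell (4152 to 4390 CPM in sum in control, 5403 to 6127 CPM with the OE label). Of 8 fibroblast markers 6 were at 0 in all libraries, with a summed level of 0.461 to 1.41 CPM in control and 0.405 to 1.18 CPM in OE-labelled libraries, and 5 of 7 enterocyte markers were at 0 (sums of 0 to 0.922 CPM and 0.393 to 1.27 CPM). Endothelial markers summed to 0.921 to 1.38 CPM and 0.405 to 1.18 CPM, with Cdh5 at 0. Immune markers summed to 13.6 to 18.9 CPM in control and 16.9 to 20.3 CPM in OE-labelled libraries, almost wholly from Cd68, while Cd3e and Adgre1 were at 0. Markers of secretory cells, which hold much ER, summed to 628 to 654 CPM in control and 1350 to 1581 CPM in OE-labelled libraries. Most of this sum was Spink4, with 469 to 494.5 CPM in control and 1011 to 1246 CPM in OE-labelled libraries. Of these 15 secretory markers 7 were tested, 4 rose (Tff3, Spink4, Fcgbp and Mmp7) and 0 fell. Among all tested genes 16.5% rose and 12.7% fell. Muc2, with 4 to 13 counts, Clca1 and Spdef did not pass (log2 fold changes 0.24, 0.33 and -0.25). The Paneth marker Lyz1 was at 0 in all libraries, as were Defa24, Chga and Neurod1. Atoh1, Zg16 and Chgb had at most 1 count in any library, and Agr2 had 2 to 21 counts. The part of secretory cells in the results below was not tested, and in bulk libraries fewer cells of a type and less RNA per cell cannot be told apart. The strand setting of the counting is not given in the sources used here. Reads from exons on the other strand thus cannot be told from those of Ddit3, Derl2, Hsp90b1, Manf, Pdia3, Ppp1r15a, Spcs1, Ssr2, Syvn1 and Txndc5. Dnajb9, Eif2ak3, Pdia6 and Sec61a1 also share exonic positions with genes on the other strand, and those genes had 0 counts.

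Whether the ER genes followed the IGF2BP3 label was asked with edgeR's quasi-likelihood test, fitted to all 10687 genes with enough counts and adjusted over them. Of the 45 members 44 were tested, and Derl3, with 0 to 2 counts per library, was not. At an adjusted p below 0.05, 8 members rose and 7 fell with the OE label, 34.1% of the 44, against 29.2% of all genes tested (16.5% higher and 12.7% lower). The share of members called thus lay near that of all genes. The median log2 fold change of the members was 0.07, against 0.04 over all tested genes. Their CPM ranges did not overlap between groups for 10 members higher and 10 lower, where 45.7% of all tested genes were without overlap. Of the 15 called members 8 changed by less than 1.5-fold. By role, 2 chaperones, 2 lectin chaperones or isomerases, 2 sensors and 1 degradation gene fell, while 3 degradation genes, 2 translocation genes, 2 stress response genes and 1 chaperone rose. Transcript GC content ran from 42.1% (Hsp90b1) to 51.2% (Eif2ak3) in members that fell. In those that rose it ran from 42.9% (Derl2) to 57.4% (Chac1). Across all tested genes, which are not independent replicates, log2 fold change followed GC content (Spearman rho 0.37). With an allowance for GC content Hspa5, Canx, Pdia3, Creld2, Sec61a1 and Sec61b lost their calls, and Hyou1, Dnajb9 and Spcs1 gained one. The part of GC content in the split by role was not tested. Without OE-labelled replicate 2 the number of higher members was 4, and without control replicates 1, 2 and 3 it was 4, 4 and 5. The number of lower members was 3, 4 and 4 without control replicates 1, 2 and 3 and 11 without OE-labelled replicate 1.

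**Figure D2:**
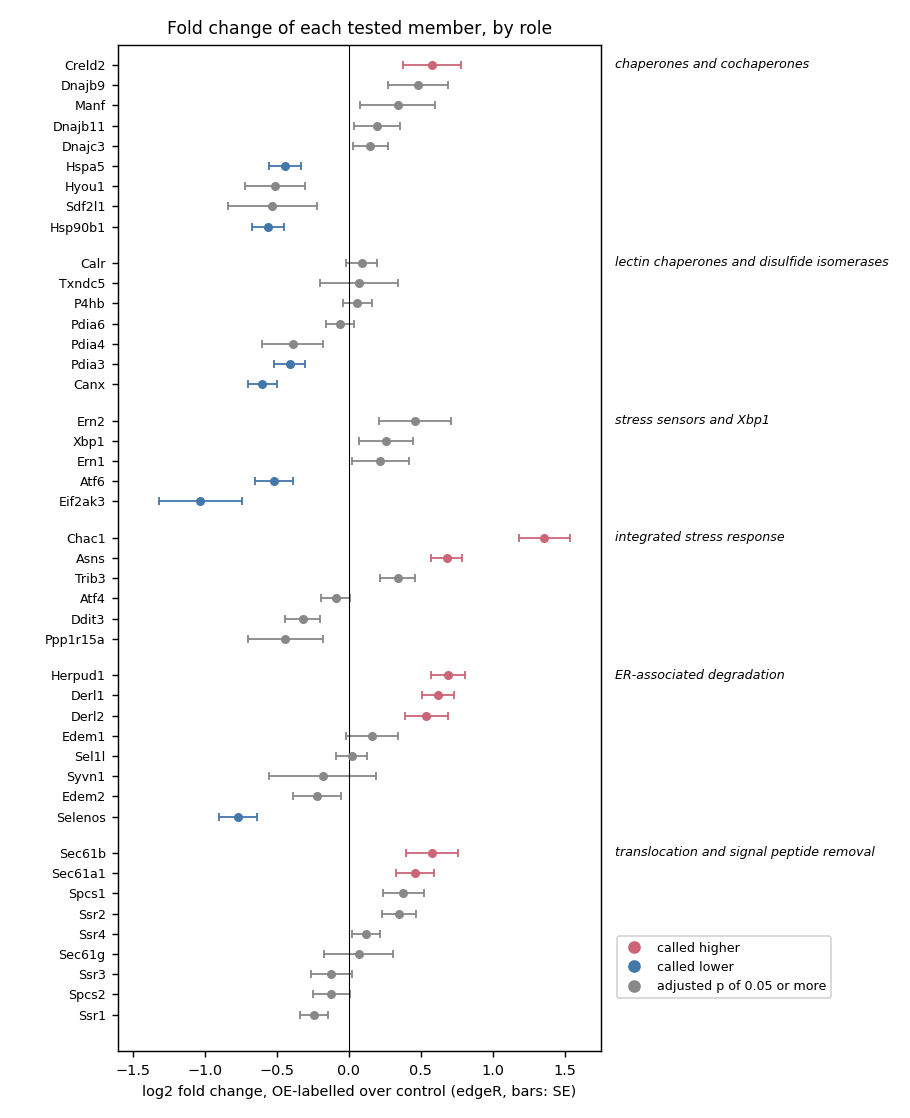
Log2 fold change of each tested member, OE-labelled over control, with its standard error (edgeR, 3 libraries per group), grouped by role and ordered within each. Points lie between -1.03 (Eif2ak3) and 1.36 (Chac1), and every role except translocation and the stress response has members called lower.

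Among the chaperones and cochaperones, 2 of 9 fell, 1 rose and 6 did not pass. Hspa5 (ENSMUSG00000026864, chr2:34771970-34777547) encodes BiP, the HSP70 chaperone of the ER lumen. It was counted at 1226, 1177 and 1157 CPM in control and at 958.6, 943.0 and 722.5 CPM in OE-labelled libraries, in replicate order. All OE-labelled libraries lay below all control libraries, and the third was the lowest. Its change on the log2 scale was -0.44 (SE 0.11, adjusted p = 0.0122 in edgeR). Hsp90b1 (ENSMUSG00000020048, chr10:86690209-86705509), which encodes the HSP90 chaperone GRP94, was counted at 788, 883 and 904 CPM in control and at 493, 614 and 640.5 CPM in OE-labelled libraries. These groups did not overlap either, at a log2 fold change of -0.56 (SE 0.11, adjusted p = 0.00355 in edgeR). Creld2 (ENSMUSG00000023272, chr15:88819646-88826683), a small ER protein induced by stress, rose from 13.8, 15.95 and 14.7 CPM to 21.1, 25.9 and 19.5 CPM, a change on the log2 scale of 0.58 (SE 0.2, adjusted p = 0.0485 in edgeR). Its counts were low, from 30 to 34 in control and from 46 to 66 in OE-labelled libraries.

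The other 6 chaperone genes had log2 fold changes between -0.53 (Sdf2l1) and 0.48 (Dnajb9). Hyou1, which encodes an HSP110-type partner of BiP, had 24.4, 27.2 and 40.1 CPM in control and 23.5, 21.2 and 19.5 CPM in OE-labelled libraries. Its ranges did not overlap, but the difference did not pass (-0.51, SE 0.21, adjusted p = 0.0831 in edgeR). With the GC offset, an allowance for transcript GC content, Hyou1 was called lower (-0.65, edgeR adjusted p = 0.0406) and Dnajb9 higher (0.73, edgeR adjusted p = 0.0131). The J-domain cochaperones Dnajb11 and Dnajc3, which hand clients to BiP, had 0.20 and 0.15, with adjusted p of 0.388 and 0.371 (edgeR). Summed over the 9 genes, the level was 2348 to 2450 CPM in control and 1781 to 1967 CPM in OE-labelled libraries, a sum made up mostly of Hspa5 and Hsp90b1. The call for Hspa5 ended without any one control library (edgeR adjusted p = 0.0654, 0.0555 and 0.0509 without replicates 1, 2 and 3) and with the GC offset (-0.27, edgeR adjusted p = 0.157). That for Creld2 ended in 15 of 20 alternatives, among them DESeq2 (adjusted p = 0.212) and each left-out library except OE-labelled replicate 3 (edgeR adjusted p from 0.0576 without OE-labelled replicate 1 and 0.0973, 0.131 and 0.148 without control replicates 2, 3 and 1 to 0.189 without OE-labelled replicate 2). The Hsp90b1 row held fractional counts in 4 libraries, and the gene shares exonic positions with 2 annotated genes on its own strand and 1 on the other.

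Of the 7 lectin chaperones and disulfide isomerases 2 fell and 0 rose. Canx (ENSMUSG00000020368, chr11:50293961-50325673) encodes calnexin, the membrane-bound lectin chaperone that holds glycoproteins during folding. It was counted at 610.7, 605.7 and 599.9 CPM in control and at 435, 407 and 355 CPM in OE-labelled libraries. The control libraries lay within a few percent of each other and far above the OE-labelled libraries. Its log2 fold change was -0.60 (SE 0.1, adjusted p = 0.00122 in edgeR). Pdia3 (ENSMUSG00000027248, chr2:121413775-121438687) encodes ERp57, the isomerase that works with calnexin and calreticulin. It fell from 308, 292 and 304 CPM to 261, 208 and 211 CPM, a change on the log2 scale of -0.41 (SE 0.11, adjusted p = 0.0171 in edgeR). Calr, which encodes calreticulin, the soluble counterpart of calnexin, was counted at 521, 539 and 528 CPM in control and at 646, 547 and 493 CPM in OE-labelled libraries. Its groups overlapped (0.09, SE 0.11, adjusted p = 0.587 in edgeR).

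The general isomerases P4hb and Pdia6 had log2 fold changes of 0.06 and -0.06, with adjusted p of 0.681 and 0.717 (edgeR). Pdia4 was counted at 158, 173 and 149 CPM in control and at 175, 109 and 82.9 CPM in OE-labelled libraries. The first OE-labelled library stood above every control library and the other OE-labelled libraries below them, and the difference did not pass (-0.39, SE 0.21, adjusted p = 0.179 in edgeR). Txndc5, a further isomerase, showed the reverse order, with 17.4 CPM in the first and 34.6 and 45.2 CPM in the other OE-labelled libraries, against 27.7 to 32.7 CPM in control. The GC offset ended the calls for Canx (-0.36, edgeR adjusted p = 0.0538) and Pdia3 (-0.29, edgeR adjusted p = 0.126). That for Pdia3 also ended without control replicate 1, 2 or 3 (edgeR adjusted p = 0.0772, 0.059 and 0.0757) and without OE-labelled replicate 2 (0.0655).

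**Figure D3:**
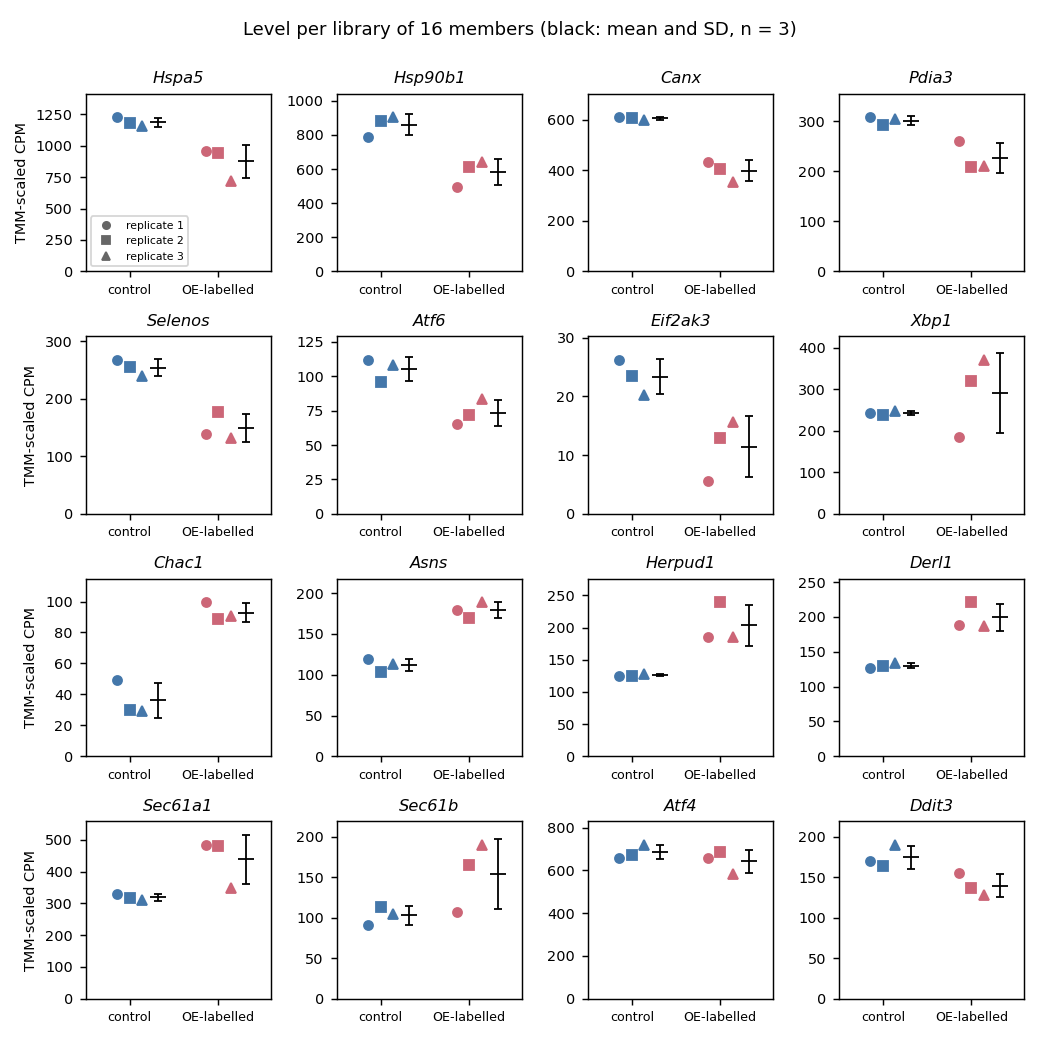
TMM-scaled CPM of 16 members in each library (circle, square and triangle for replicates 1, 2 and 3, with mean and SD in black, y axes from 0). Hspa5, Hsp90b1, Canx, Pdia3, Selenos, Atf6 and Eif2ak3 lie lower in all OE-labelled libraries, as does Ddit3, which was not called. Chac1, Asns, Herpud1, Derl1 and Sec61a1 lie higher in all of them, and Xbp1 lies on both sides of control.

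Of the 5 sensor genes, Xbp1 included, 2 fell (Atf6 and Eif2ak3), 0 rose and 3 did not pass. Atf6 (ENSMUSG00000026663, chr1:170704674-170867771) was counted at 112, 95.7 and 108 CPM in control and at 65.2, 71.6 and 83.7 CPM in OE-labelled libraries. No OE-labelled library reached the lowest control library, at a log2 fold change of -0.52 (SE 0.13, adjusted p = 0.0109 in edgeR). Eif2ak3 (ENSMUSG00000031668, chr6:70844515-70905245), which encodes PERK, rested on 44 to 57 counts per control library and on 14, 33 and 37 counts with the OE label. On the CPM scale these were 26.3, 23.5 and 20.3 against 5.67, 12.98 and 15.6, without overlap, and the first OE-labelled library was the lowest. The log2 fold change of -1.03 (SE 0.29, adjusted p = 0.0193 in edgeR) was the largest decrease among the tested members. Without that library it was -0.76 (edgeR adjusted p = 0.0126), behind Pdia4 at -0.79 and Selenos at -0.77.

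Of the IRE1 branch, Ern1, Ern2 and Xbp1 themselves did not pass with all 6 libraries, and no group of XBP1 target genes was formed. Ern1, which encodes the widely expressed IRE1α, had 40.6, 30.5 and 35.0 CPM in control and 32.8, 37.0 and 53.7 CPM in OE-labelled libraries (log2 fold change 0.22, SE 0.2, adjusted p = 0.44 in edgeR). Ern2, its epithelial paralogue, had 16 to 23 counts in control and 27 to 36 in OE-labelled libraries. The CPM ranges of Ern2, 7.37 to 10.6 and 10.6 to 14.6, touched without overlap, and the difference did not pass (0.46, SE 0.25, adjusted p = 0.186 in edgeR). Xbp1, whose mRNA IRE1 splices, was counted at 242, 239 and 248.8 CPM in control and at 185, 320 and 372 CPM in OE-labelled libraries. One OE-labelled library lay below and the others above the narrow control range, with a log2 fold change of 0.26 (SE 0.19, adjusted p = 0.324 in edgeR). Gene counts do not tell spliced from unspliced Xbp1, so IRE1 activity was not measured. The call for Atf6 ended without control replicate 1 or 3 (edgeR adjusted p = 0.0612 and 0.0547) and with an exonic length offset (-0.35, edgeR adjusted p = 0.0612), and that for Eif2ak3 without control replicate 1 or 2 (0.0823 and 0.0644). The annotation places further genes inside Atf6 and Eif2ak3 on the same strand, without shared exonic positions. On the other strand Eif2ak3 shares exonic positions with Gm43292, which had 0 counts.

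The integrated stress response genes held the largest increase among the members. Chac1 (ENSMUSG00000027313, chr2:119351229-119354381), which encodes a glutathione-degrading enzyme induced through ATF4, was counted at 49.3, 30.0 and 29.0 CPM in control and at 99.7, 88.5 and 90.5 CPM in OE-labelled libraries. Every OE-labelled library was well above every control library, at a log2 fold change of 1.36 (SE 0.18, adjusted p = 0.000324 in edgeR). Asns (ENSMUSG00000029752, chr6:7675169-7693254), which encodes asparagine synthetase, rose from 119, 104 and 113 CPM to 179, 169 and 189 CPM. Its log2 fold change was 0.68 (SE 0.11, adjusted p = 0.000927 in edgeR). Trib3, a pseudokinase induced by the same factors, had 106, 112 and 106 CPM in control and 148, 145.5 and 116 CPM in OE-labelled libraries. Its groups did not overlap, but the difference did not pass (0.34, SE 0.12, adjusted p = 0.0563 in edgeR).

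Atf4 mRNA, by contrast, was counted at 660.0, 671 and 721 CPM in control and at 659.6, 685 and 581 CPM in OE-labelled libraries. Its groups overlapped (log2 fold change -0.09, SE 0.1, adjusted p = 0.517 in edgeR), and since ATF4 is regulated chiefly in translation its mRNA level is no measure of its activity. Ddit3, which encodes the stress factor CHOP, had 170, 163 and 190.3 CPM in control and 155, 136.5 and 128 CPM in OE-labelled libraries. These values did not overlap and lay lower in the OE-labelled libraries, with a log2 fold change of -0.32 that did not pass (SE 0.12, adjusted p = 0.055 in edgeR). The second Ddit3 gene model held 6 counts in all, and both models had fractional counts in 4 libraries. Ddit3 also shares exonic positions with Mars on the other strand, and its counts are uncertain. Ppp1r15a, the phosphatase subunit GADD34 that restores translation, had 48.9, 44.1 and 51.1 CPM in control and 19.5, 35.0 and 52.4 CPM in OE-labelled libraries, and did not pass (-0.44, SE 0.26, adjusted p = 0.225 in edgeR). Thus 2 of the 6 genes rose, 0 fell and 4 did not pass, and the calls for Chac1 and Asns were kept in all 20 alternatives at the same threshold. Without control replicate 1, the control library with the highest Chac1 level, the log2 fold change of Chac1 was 1.65.

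Of the 8 tested degradation genes 3 rose and 1 fell. Herpud1 (ENSMUSG00000031770, chr8:94386438-94395377) encodes HERP, a membrane protein of the degradation complex around the ubiquitin ligase HRD1. It was counted at 125, 125 and 128.5 CPM in control and at 185, 239.5 and 185 CPM in OE-labelled libraries. The groups were well apart, with a log2 fold change of 0.69 (SE 0.12, adjusted p = 0.00169 in edgeR). Derl1 (ENSMUSG00000022365, chr15:57869502-57892448) and Derl2 (ENSMUSG00000018442, chr11:71007164-71019841) encode derlins, which help to move proteins out through the ER membrane. Derl1 rose from 127, 129 and 134 CPM to 189, 221 and 188 CPM (log2 fold change 0.62, SE 0.11, adjusted p = 0.00165 in edgeR). Derl2 rose from 35.0, 38.9 and 43.8 CPM to 49.4, 62.5 and 59.2 CPM (log2 fold change 0.54, SE 0.15, adjusted p = 0.0177 in edgeR). No OE-labelled library overlapped control for either derlin, and Derl3, the paralogue known from secretory tissues, was at or under the floor of 3 counts in every library.

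Selenos (ENSMUSG00000075701, chr7:66079649-66089405), which encodes a selenoprotein that links derlins to the VCP ATPase, moved the other way. It fell from 268, 255.2 and 239 CPM to 139, 177 and 132 CPM, a change on the log2 scale of -0.77 (SE 0.13, adjusted p = 0.001 in edgeR). Its OE-labelled values all lay below the lowest control value. Syvn1 encodes HRD1 itself and was counted at 36.4, 36.1 and 40.5 CPM in control and at 9.72, 47.6 and 42.3 CPM in OE-labelled libraries. One library was low, the others lay above control, and the difference did not pass (-0.18, SE 0.37, adjusted p = 0.744 in edgeR). Sel1l, the partner of HRD1, had a log2 fold change of 0.02 (SE 0.11, adjusted p = 0.9 in edgeR). The mannosidase-like Edem1 and Edem2, which mark glycoproteins for degradation, had 0.16 and -0.22 with adjusted p of 0.551 and 0.353 (edgeR). The calls for Herpud1, Derl1 and Selenos were kept in all 20 alternatives at the same threshold. The call for Derl2, which shares exonic positions with Mis12 on the other strand, ended with DESeq2 (adjusted p = 0.0764), without control replicate 1 or 2 (edgeR adjusted p = 0.0918 and 0.0706) and without OE-labelled replicate 2 (0.0826).

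For translocation and signal peptide removal, 2 of 9 genes rose, 0 fell and 7 did not pass. Sec61a1 (ENSMUSG00000030082, chr6:88503579-88518905), the pore-forming subunit of the SEC61 channel, was counted at 329, 318 and 309 CPM in control and at 485, 479.7 and 349 CPM in OE-labelled libraries. All OE-labelled libraries were above control, the third by least, at a log2 fold change of 0.46 (SE 0.13, adjusted p = 0.0173 in edgeR). Sec61b (ENSMUSG00000053317, chr4:47474658-47483242), a small subunit of the same channel, had 90.8, 114 and 105 CPM in control and 107, 165 and 191 CPM in OE-labelled libraries. Its first OE-labelled library lay within the control range and the others above it, and the difference passed (log2 fold change 0.58, SE 0.18, adjusted p = 0.0303 in edgeR). Sec61g, the third subunit, had 25.8, 19.2 and 23.0 CPM in control and 15.4, 24.8 and 31.3 CPM in OE-labelled libraries, and its groups overlapped (0.07, SE 0.24, adjusted p = 0.864 in edgeR). Differences between the subunits in this response were not tested.

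The translocon-associated proteins Ssr1 to Ssr4, which aid the entry of some signal peptides, had log2 fold changes of -0.24, 0.35, -0.12 and 0.12. Of these, Ssr2 came closest to the threshold, with 80.7, 83.0 and 75.6 CPM in control and 90.8, 101.5 and 112 CPM in OE-labelled libraries (SE 0.12, adjusted p = 0.0503 in edgeR). Its groups did not overlap, and neither did those of Ssr1, which lay lower in the OE-labelled libraries (edgeR adjusted p = 0.0944). The signal peptidase subunits Spcs1 and Spcs2 had 0.38 and -0.12, with adjusted p of 0.0557 and 0.522 (edgeR). With the GC offset Spcs1 was called higher (0.61, edgeR adjusted p = 0.00487). The calls for both SEC61 genes ended with the GC offset (0.27 and 0.35, edgeR adjusted p = 0.165 and 0.19 for Sec61a1 and Sec61b), for Sec61b with the length offset (0.34, edgeR adjusted p = 0.143) and without any one control library (edgeR adjusted p = 0.0635, 0.0751 and 0.0866 for Sec61a1 and 0.137, 0.0634 and 0.0974 for Sec61b without replicates 1, 2 and 3). They also ended without OE-labelled replicate 2 (0.106 and 0.111) and, for Sec61b, without OE-labelled replicate 3 (0.0785).

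**Figure D4:**
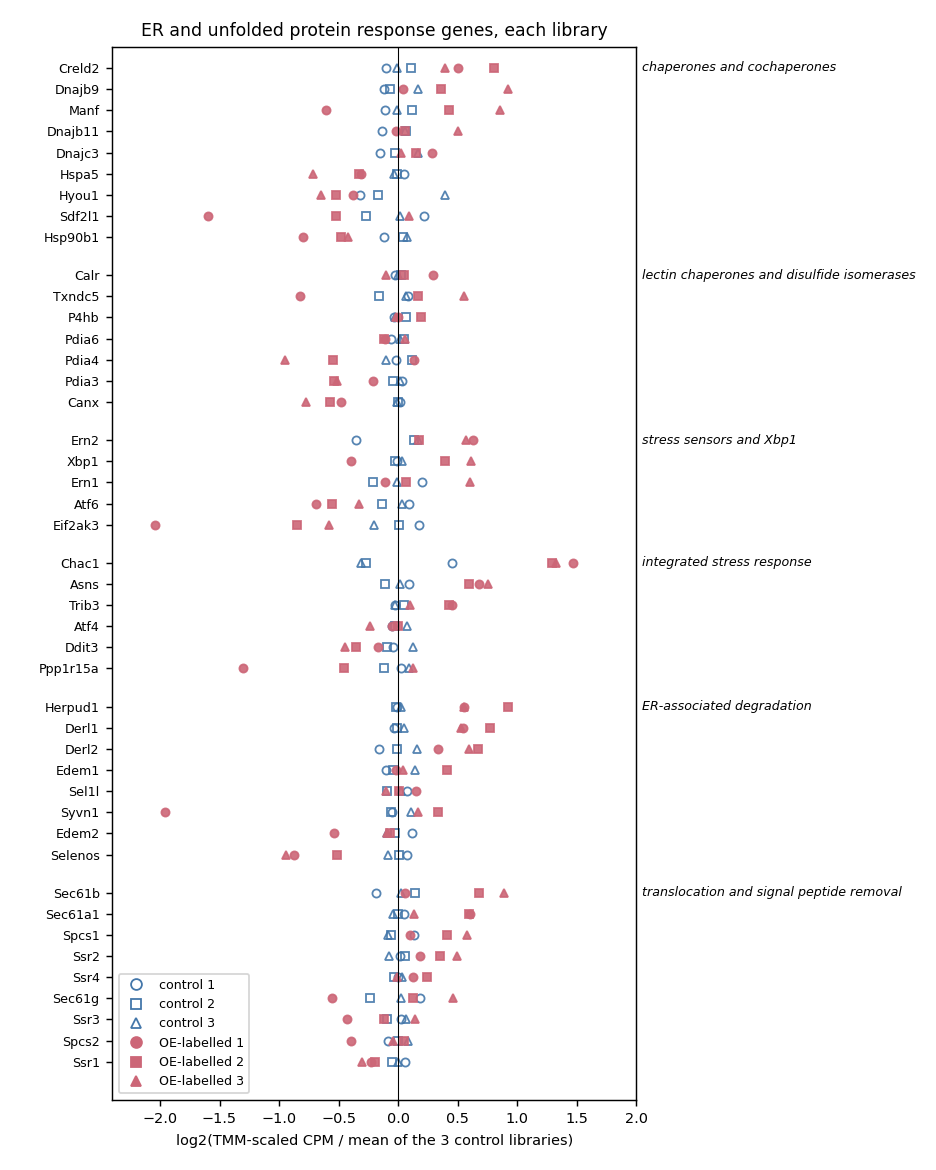
Level of each tested member in each library, as log2 of the TMM-scaled CPM over the mean of the 3 control libraries (open symbols control, filled symbols OE-labelled, shape by replicate). Control libraries lie near 0, and OE-labelled replicate 1 (filled circles) stands far to the left for Eif2ak3, Syvn1, Sdf2l1 and Ppp1r15a.

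OE-labelled replicate 1 had the lowest value of its group for 22 of the 44 members, against 36.7% of all tested genes, and the highest for 13, against 36.3%. A level under 0.6 of the mean of the other OE-labelled libraries, a limit chosen after the values were seen, was found for 8 members (18.2%), against 9.42% of all tested genes. These were Syvn1, Sdf2l1, Eif2ak3, Manf, Txndc5, Ppp1r15a, Xbp1 and Sec61g. Manf, which encodes a secreted ER stress protein, was counted at 92.2, 107 and 98.6 CPM in control and at 65.2, 133 and 179 CPM in OE-labelled libraries. Sdf2l1, a component of the BiP complex, was counted at 35.5, 25.3 and 30.9 CPM in control and at 10.1, 21.2 and 32.5 CPM in OE-labelled libraries. For both genes the first OE-labelled library lay below all control libraries and the third OE-labelled library was the highest of its group. Pdia4 was the only tested member more than 1/0.6 times as high in the first OE-labelled library as in the mean of the others, with a ratio of 1.82.

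Leaving this library out changed which members passed. The fit without it called 12 members higher and 11 lower, where 14.8% and 15.9% of all genes tested in that fit were called in these directions. Manf (0.59, edgeR adjusted p = 0.00134), Xbp1 (0.45, edgeR adjusted p = 0.00129), Dnajb9 (0.61, edgeR adjusted p = 0.0146), Ssr2 and Spcs1 were then called higher. Pdia4 (-0.79, edgeR adjusted p = 8.94e-05), Ddit3 (-0.46, edgeR adjusted p = 0.00338), Hyou1 and Ssr1 were called lower. Creld2 was no longer called (edgeR adjusted p = 0.0576), and the other 14 called members passed in both fits. Dnajb9, a BiP cochaperone and a known target of XBP1, had 27.7, 28.6 and 33.6 CPM in control and 30.8, 38.5 and 56.6 CPM in OE-labelled libraries. The remaining OE-labelled group then has 2 libraries, and what set the first apart was not tested.

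**Figure D5:**
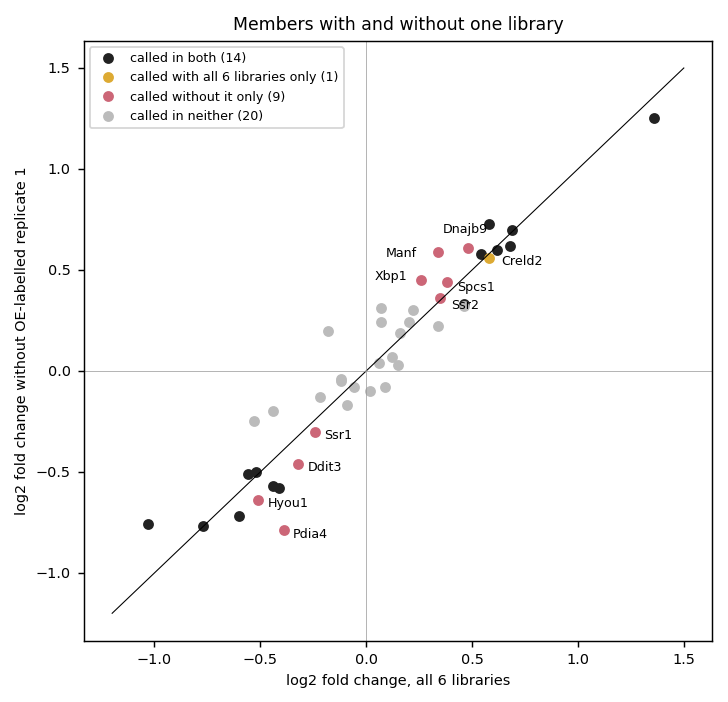
Log2 fold change of the 44 tested members with all 6 libraries (x axis) and without OE-labelled replicate 1 (y axis, edgeR), with the line of equality. The 9 members in red passed only without that library, 14 passed in both fits, 1 (Creld2) only with all libraries, and Syvn1, Calr and Sel1l lie on opposite sides of 0 in the 2 fits.

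Other genes of the same pathways were read beside the members, with changes given on the log2 scale. Their lists were written by role, but with earlier results of these data known. Of 115 such genes, 106 had enough counts to be tested, with 23 higher and 8 lower (29.2%, equal to the share of all genes) and a median log2 fold change of 0.07. Among 36 tested genes of stress signalling and amino acid supply 8 rose and 2 fell, but the median log2 fold change was -0.05, 17 were positive, and ranges without overlap were 8 higher and 9 lower. Phgdh, the first enzyme of serine synthesis, rose by 0.80 (SE 0.11, adjusted p = 0.000366 in edgeR), and Shmt2, a mitochondrial serine-to-glycine enzyme, by 0.91 (SE 0.14, adjusted p = 0.000722 in edgeR). Slc3a2, the heavy chain of amino acid exchangers, rose by 0.72 (SE 0.1, adjusted p = 0.000516 in edgeR).

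Among 24 other degradation genes 5 rose and 1 fell. Vcp, the ATPase that pulls proteins from the ER membrane, rose by 0.48 (SE 0.11, adjusted p = 0.00661 in edgeR). Marchf6, a membrane ubiquitin ligase, rose by 0.42 (SE 0.12, adjusted p = 0.018 in edgeR), a call that ended in 6 alternatives. Among 21 other folding genes 5 rose and 3 fell. Ero1l, the oxidase that recharges disulfide isomerases, fell from 291, 297 and 316 CPM to 203, 191 and 172 CPM (-0.68, SE 0.11, adjusted p = 0.000728 in edgeR). Cnpy2 rose by 0.76 (SE 0.11, adjusted p = 0.000507 in edgeR) and Txndc12 by 0.87 (SE 0.18, adjusted p = 0.00396 in edgeR). Among 25 other translocation and targeting genes 5 rose and 2 fell. Emc1 and Emc3, subunits of the membrane protein insertase EMC, rose by 0.87 (SE 0.16, adjusted p = 0.00174 in edgeR) and 0.61 (SE 0.14, adjusted p = 0.00573 in edgeR). Of the other EMC subunits on the list, looked up after the values were seen, Emc10 also rose (0.78, edgeR adjusted p = 0.0083). Emc7 fell (-0.66, edgeR adjusted p = 0.0133), a call that ended without control replicate 2 and with the GC offset (adjusted p = 0.0526 in edgeR). The subunits Emc2, Emc4, Emc6 and Mmgt1 did not pass. Srp68, a subunit of the signal recognition particle, rose by 0.55 (SE 0.12, adjusted p = 0.00583 in edgeR), a call that ended with the GC offset.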

How the data were processed

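The 6 organoid libraries, 3 per group by their titles, were compared. Per the labels' protocols, QuantSeq 3′ forward libraries were made from total RNA. The submitters' processing notes name STAR, HTSeq and the mm10 and GRCm38 builds; annotation, strand and multi-mapping settings are not given in the sources used here. Deposited were the authors' estimated counts for 52249 genes, unnormalized and with 2843 fractional values, which were rounded. The members and lists were chosen with earlier results of these data known.

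Genes were kept by filterByExpr, scaled by TMM and tested with edgeR 4.0.16 (R 4.3.3) in a quasi-likelihood fit without covariates, OE-labelled against control, with Benjamini-Hochberg adjustment over 10687 genes. CPM is relative to the TMM-scaled total of these genes. SE was obtained as the fold change over the root of F. The fit was tested on simulated data with the same spread in both groups, which does not cover the unequal spread seen here. The detection floor covers counting error only, while the SE includes the spread between libraries. Identifiers (99.3% matched), positions, overlaps, exonic length and the GC content of the longest transcript came from GENCODE M21 (GRCm38). Members and, of other pathway genes, at most 3 per list with the smallest p were named by rule. One gene that the rule names is not reported here. Hyou1, Pdia4, Txndc5, Trib3, Ppp1r15a, Syvn1, Sec61g, Ssr2, Manf, Sdf2l1, Dnajb9 and Calr were given values after these were seen. Alternatives were DESeq2 1.42.0, limma-voom (limma 3.58.1), other scalings and filters, equal depth, gene subsets, GC and length offsets (loess, span 0.5), a replicate block, unrounded counts, left-out libraries and an adjusted p below 0.01.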

Additional observations from a re-analysis of the deposited data

How the results depend on the processing

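The counts of members called higher (8) and lower (7) stayed within 1.5 times under 13 of the 15 alternatives that kept all libraries; an adjusted p below 0.01 left 4 higher and 3 lower, and no count filter gave 11 lower. Leaving out single libraries gave 4 to 12 higher and 3 to 11 lower. The median of 0.07 ran from -0.027 to 0.117 with all libraries and from -0.009 to 0.08 with one left out. The replicate block gave 7 higher and 7 lower with a median of 0.052, and ended the call for Creld2 (0.57, edgeR adjusted p = 0.0584). Replicate block and GC offset together ended the call for Atf6 (-0.38, edgeR adjusted p = 0.0514), and also those for Hspa5, Pdia3, Creld2, Sec61a1 and Sec61b, while Dnajb9, Spcs1, Hyou1, Sdf2l1 and Ppp1r15a gained one. The labels do not say what equal numbers share, and pairing was not assumed: deviations of equally numbered libraries correlated at 0.09, 0.02 and 0.06, against a mean of -0.03 for unequal numbers, and 5 of 6 libraries correlated best with their own number, a hint from the data and not the design. Of 924 values for single members, 802 kept direction and call, 59 lost and 34 gained a call, and 29 changed sign, all without a call.

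Sign changes came in 10 genes. With the exonic length offset Calr became -0.055, P4hb -0.088, Sec61g -0.117 and Ssr4 -0.011. With the GC offset, without and with the replicate block, P4hb became -0.132 and -0.134, Ssr3 0.123 and 0.119 and Txndc5 -0.088 and -0.132. Txndc5 became -0.039 with limma-voom. Protein-coding genes only gave P4hb -0.001 and Sel1l -0.039. Sel1l was also -0.019 with DESeq2 and with its size factors, -0.009 without a count filter and -0.036 without mitochondrial genes and CT010467.1. With single libraries left out, Calr ran from -0.08 to 0.176, Edem1 from -0.019 to 0.232, Ern1 from -0.015 to 0.323, P4hb from -0.036 to 0.102, Sec61g from -0.17 to 0.244, Sel1l from -0.101 to 0.084, Syvn1 from -0.582 to 0.199 and Txndc5 from -0.24 to 0.31. The cause of these changes was not tested, beyond the fewer samples of the left-out fits. Log2 fold change followed transcript GC content across all tested genes, which are not independent replicates (Spearman rho 0.37), and depth limits members under about 50 counts per library, such as Ern2, Creld2 and Eif2ak3.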
